A study of Mus musculus with 16 samples.

Results

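The major urinary proteins are encoded by the Mup genes, a mouse gene cluster of close copies. The 8 members described here, Mup1, Mup2, Mup3, Mup11, Mup12, Mup20, Mup21 and Mup22, were taken by symbol from a table of 55291 genes measured by RNA-seq in 16 libraries. The list was selected on levels measured in these same libraries, Mup2 on its difference between Arid1a/b DKO and WT livers at 9 days, so the levels below describe the genes and do not test the choice of them. Which values chose the other 7 is not recorded, so every p-value of a member below may be too small. All 8 passed the low-count filter of both model fits.

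RNA came from mouse liver and liver tumours in 8 groups of 2 replicates, which the submitters call biological replicates. The Arid1a KO/BcatEXON group holds isolated liver tumours and carries no time or treatment label. Livers of Arid1a/b DKO mice were taken 9 days after tamoxifen injection. Livers of Arid1a KO mice were taken at 9 and 30 days, and a further Arid1a KO group at 30 days had received an agonist. WT livers formed the same groups: agonist at 30 days, and 9 and 30 days without it. Mice not given the agonist have the vehicle DMSO in their labels, and the agonist is written as an NR1L3 agonist, coded TC, a spelling that is not a receptor symbol. The WT agonist libraries have 9 days in their titles and 30 days in their other fields, and were taken as 30 days. Tissue is called hepatocytes in one label and whole liver in the design text. The sources used here do not give strain, age, sex or the Cre driver. The products of Arid1a and Arid1b are mutually exclusive subunits of one form of the SWI/SNF chromatin remodeller. BcatEXON is the labels' name for the allele of the tumour group and is not explained further in them.

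Major urinary proteins are small lipocalins, barrel-shaped proteins that hold a hydrophobic ligand. Hepatocytes secrete them into the blood, they pass into the urine, and there they bind volatile pheromones and release them slowly. Most are made at higher levels in male than in female liver, because the pulsed growth hormone of males acts through the growth hormone receptor and STAT5B. Mup20 encodes darcin, a male-specific urinary protein that itself acts as a pheromone. ZHX2 is a known regulator of Mup transcription in mouse liver.

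The members differ in how well their reads can be told apart, and a stretch of coding sequence shows why. The 60 bases below come from the same aligned part of each gene's coding sequence in GENCODE M21 (coding bases 212 to 271 of Mup1, Mup2 and Mup12, 215 to 274 of Mup11, Mup20, Mup21 and Mup22, and 224 to 283 of Mup3). Capitals mark bases unlike those of most members.
Mup1: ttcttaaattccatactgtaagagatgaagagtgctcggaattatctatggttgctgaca
Mup2: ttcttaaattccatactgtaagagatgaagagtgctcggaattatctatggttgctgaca
Mup11: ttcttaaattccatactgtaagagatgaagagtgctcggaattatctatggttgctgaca
Mup12: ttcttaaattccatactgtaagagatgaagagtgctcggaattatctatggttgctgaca
Mup22: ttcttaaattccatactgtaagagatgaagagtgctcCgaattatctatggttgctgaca
Mup20: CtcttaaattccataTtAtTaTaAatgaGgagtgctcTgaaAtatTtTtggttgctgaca
Mup21: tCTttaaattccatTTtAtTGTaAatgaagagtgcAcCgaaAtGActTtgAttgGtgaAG
Mup3: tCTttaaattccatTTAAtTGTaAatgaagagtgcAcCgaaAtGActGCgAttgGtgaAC
Mup1, Mup2, Mup11 and Mup12 were identical in this window. Mup22 differed from them at 1 base, Mup20 at 11, Mup21 at 19 and Mup3 at 21. Over the whole coding sequence, Mup1, Mup2, Mup11, Mup12 and Mup22 shared 98.7% to 99.6% of aligned bases with each other. Mup20 shared 90.9% to 91.1% with those 5, and Mup3 and Mup21 shared 83.5% to 84.6% with them. Mup3 and Mup21 were 95.4% identical, with 25 differing bases.

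The share of each transcript that no other annotated Mup transcript contains followed the same division. Of all 75-base windows, 92.6% were unique to Mup3, 89.7% to Mup21 and 56.4% to Mup20. The shares were 19.7% for Mup12, 14.3% for Mup11 and 8.26% for Mup1, and were 0% for Mup2 and Mup22. Counts of Mup1, Mup2, Mup11, Mup12 and Mup22 are therefore uncertain as single genes, since the sources used here do not say how reads that map to several places were counted. Mup11 and Mup22 each differ at 1 coding base from Mup18, which is not a member. Results are given for single genes and for the summed reads, and Mup3, Mup20 and Mup21 are the members best told apart.

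All 8 members are protein-coding genes on the minus strand of chromosome 4 in GRCm38, and no annotated gene of another name overlaps them. Mup2 (chr4:60135932-60154289), Mup1 (chr4:60498012-60501960), Mup11 (chr4:60658466-60662411), Mup12 (chr4:60737383-60741326) and Mup22 (chr4:60817589-60821463) lie towards one end of the cluster. Mup20 (chr4:62050234-62054158), Mup3 (chr4:62083476-62087342) and Mup21 (chr4:62147932-62150863) lie next to each other at the other end. The 3 members with the most distinct sequences are thus neighbours.

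RefSeq (GRCm38.p6) gave promoter sequence for 4 members, Mup2, Mup3, Mup11 and Mup21. The 150 bases that end with the TATA box are printed below so that the upstream sequences of a near-identical gene pair and of the 2 distal genes can be lined up. Capitals mark the letters TATATAA, which form the binding box of the general transcription machinery near the start site. Further upstream they mark ATCAAT, the core letters bound by Onecut factors.
Mup2 (chr4:60139877-60140026, minus strand): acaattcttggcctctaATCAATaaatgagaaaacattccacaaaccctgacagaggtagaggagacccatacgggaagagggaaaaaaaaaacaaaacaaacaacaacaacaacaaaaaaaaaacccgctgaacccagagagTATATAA
Mup11 (chr4:60662391-60662540, minus strand): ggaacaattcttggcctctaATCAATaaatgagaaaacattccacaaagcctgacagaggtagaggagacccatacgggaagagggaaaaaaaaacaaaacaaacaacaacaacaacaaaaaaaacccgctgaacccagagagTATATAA
Mup3 (chr4:62087322-62087471, minus strand): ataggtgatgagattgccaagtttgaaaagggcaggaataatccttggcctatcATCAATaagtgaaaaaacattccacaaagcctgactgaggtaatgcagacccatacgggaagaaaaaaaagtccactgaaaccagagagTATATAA
Mup21 (chr4:62150843-62150992, minus strand): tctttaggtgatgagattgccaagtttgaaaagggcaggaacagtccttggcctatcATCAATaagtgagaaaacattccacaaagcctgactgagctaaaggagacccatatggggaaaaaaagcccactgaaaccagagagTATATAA
The stretches of Mup2 and Mup11 were 99.3% identical over aligned bases, those of Mup3 and Mup21 93.2%, and the pairs across these 86.7% to 88.5%. On either strand, TATATAA occurred in the promoter windows of 4 of 4 members and in 13 of 14 Mup windows in the table, against 3.24% of all 32851 windows. ATCAAT occurred in 4 of 4 and 14 of 14, against 7.54% of all windows. The letters TTCNNNGAA (a STAT motif), TTGCNNAA (a C/EBP motif) and TGTTTAC (a FOXA motif) occurred in 0 of 14 Mup windows, against 8.30%, 10.8% and 3.65% of all windows. A match describes the letters only, and the windows hold only a short stretch around each annotated start.

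Libraries held 7569779 to 47768610 counts, and the replicate numbered 1 was the shallower in 8 of 8 groups. Levels below are depth-scaled counts (CPM, with TMM factors over the 16 libraries), on which 3 counts correspond to 0.0481 to 0.363 CPM. The summed level of 6 hepatocyte markers, with albumin among them, was 16274 to 19673 CPM in tumours and 12391 to 34912 CPM across all libraries. Arid1a itself had 68.7 to 102.6 CPM in Arid1a KO and Arid1a/b DKO livers and 72.2 to 104.7 CPM in WT livers, so gene-level counts do not check the deletion, and the sources used here do not name the deleted exons. Arid1b had 24.5 and 25.7 CPM in Arid1a/b DKO livers, against 38.0 and 52.8 CPM in WT livers at 9 days.

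The tumours stood apart from the livers in sex-linked genes. Xist, transcribed from the inactive X chromosome of females, had 354 and 53.8 CPM in tumours 1 and 2 and at most 0.767 CPM in the 14 livers. Ddx3y, on the Y chromosome, had 0.567 and 34.8 CPM in tumours 1 and 2, against 55.3 to 98.6 CPM in livers. Eif2s3y, also on the Y chromosome, had 1.02 and 36.4 CPM in the tumours, against 54.3 to 89.6 CPM in livers. Tumour 1 thus had the pattern of female tissue, tumour 2 had both kinds of transcript, and all livers had the male pattern. Since the Mup genes depend on sex, tumour and sex cannot be told apart in what follows.

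The 8 members took up at most 0.738% of all counts, in replicate 1 of Arid1a KO liver at 30 days, and at least 0.0148%, in tumour 2. All Mup rows together took up at most 1.013%, in replicate 1 of WT agonist liver. The summed level of the 8 members averaged 5928 CPM in Arid1a KO livers at 30 days, 5787 in WT agonist livers and 5038 in WT livers at 30 days, 3 groups that overlap. It averaged 1997 CPM in Arid1a KO and 2494 CPM in WT livers at 9 days, and these overlap too. Arid1a KO agonist livers were lower, with 1267 CPM. The lowest means were 322 CPM in Arid1a/b DKO livers and 197 CPM in tumours, and their ranges overlap. Between WT at 30 and at 9 days, between Arid1a KO at 9 days and Arid1a KO agonist, and between Arid1a KO agonist and Arid1a/b DKO, the ranges did not overlap.

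**Figure D1:**
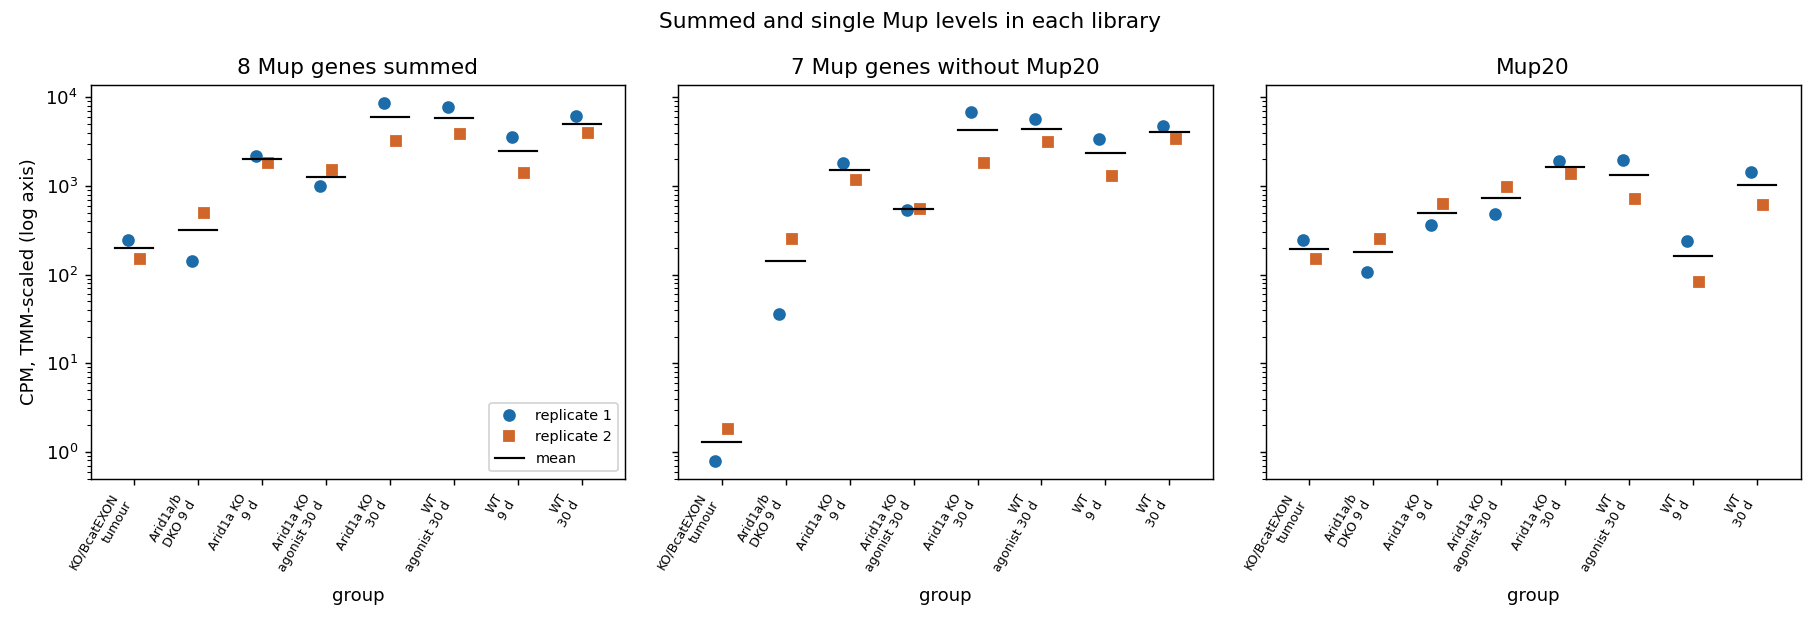
Levels (TMM-scaled CPM, log axis) of the 8 Mup genes summed, of the 7 without Mup20, and of Mup20 alone in each library, by group, with circles for replicate 1, squares for replicate 2 and a line at the mean. The tumours sit at 0.794 and 1.82 CPM without Mup20, below every liver, while their Mup20 lies at 244 and 148 CPM, within the range of the livers.

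Replicates of one group differed widely. In Arid1a KO livers at 30 days the summed level was 8657 CPM in replicate 1 and 3198 CPM in replicate 2, and in WT livers at 9 days it was 3598 and 1389.7 CPM. The replicate numbered 1 had the higher sum in 6 of 8 groups; whether its lower depth has a part in this was not tested. In bulk tissue, fewer hepatocytes and less Mup RNA per hepatocyte cannot be told apart.

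Mup3 and Mup20 led in counted level. Per kilobase of annotated exon, WT livers at 30 days averaged 3175 ± 726 CPM for Mup3 and 1097 ± 634 for Mup20 (SD, n = 2). Mup21 averaged 236 ± 187 and Mup11 167 ± 140 CPM per kilobase. On the same scale Mup22 averaged 99.0 ± 29.0, Mup12 45.6 ± 23.7, Mup1 37.5 ± 17.6 and Mup2 14.3 ± 4.18 CPM per kilobase. The spread of Mup21 and Mup11 between the 2 livers was nearly as large as their mean. Mup3, Mup21 and Mup20 also had the most unique sequence, while counts of the near-identical members are uncertain as single genes. Exon length joined all annotated transcripts of a gene, 1584 bases for Mup1 against 776 in the transcript used for the windows. How far these alter the order was not tested.

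Mup3 made up 0.0464% and 0.842% of member reads in the tumours, 24.3% and 47.2% in Arid1a/b DKO livers, and 85.7% and 88.1% in WT livers at 9 days. Mup20 had the opposite course. Its share was 99.7% and 98.8% in tumours, 75% and 49.8% in Arid1a/b DKO livers, 16.5% and 34.8% in Arid1a KO livers at 9 days and 6.65% and 6.004% in WT livers at 9 days. At 30 days it was 47.4% and 63.6% in Arid1a KO agonist livers, 22.0% and 42.8% in Arid1a KO livers, 25.6% and 18.5% in WT agonist livers and 23.4% and 15.2% in WT livers. Shares within a library do not depend on scaling, but a share rises when the other members fall.

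**Figure D2:**
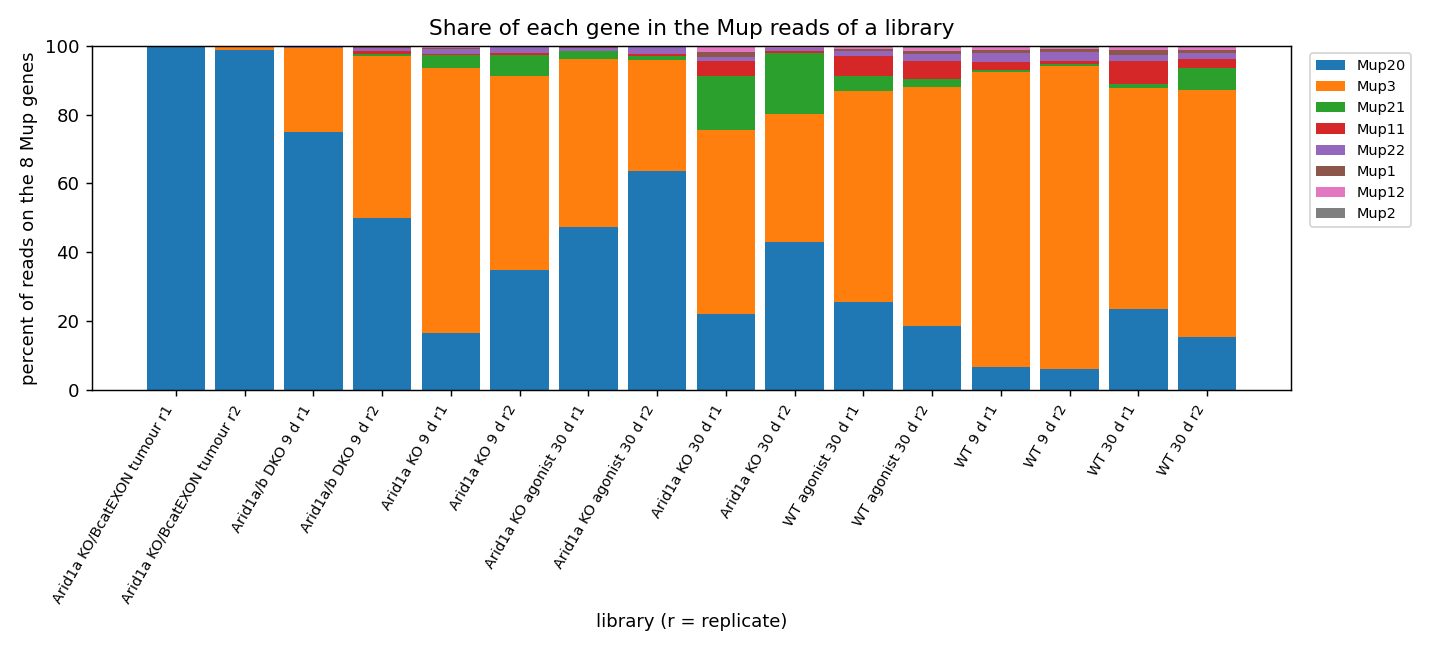
Percent of the reads on the 8 Mup genes that each gene took, for every library (r is the replicate), as stacked bars from 0 to 100. Mup20 takes 99.7% and 98.8% in the tumours and 6.65% and 6.004% in WT livers at 9 days, where Mup3 takes most of the rest.

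Across groups the members formed unlike patterns. The closest pair over the 8 group means was Mup1 and Mup12, with a root mean square difference of 0.51 in centred log2(CPM + 0.5), and the farthest was Mup3 and Mup20, with 3.16. Mup20, the darcin gene, was highest in Arid1a KO livers at 30 days (1906 and 1370.0 CPM), WT agonist livers (1974 and 714 CPM) and WT livers at 30 days (1434 and 602 CPM). It was lowest in tumours, Arid1a/b DKO livers and WT livers at 9 days, 3 groups whose ranges overlap. Mup21 stood highest in Arid1a KO livers at 30 days, at 1349 and 571 CPM, above every other library.

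**Figure D3:**
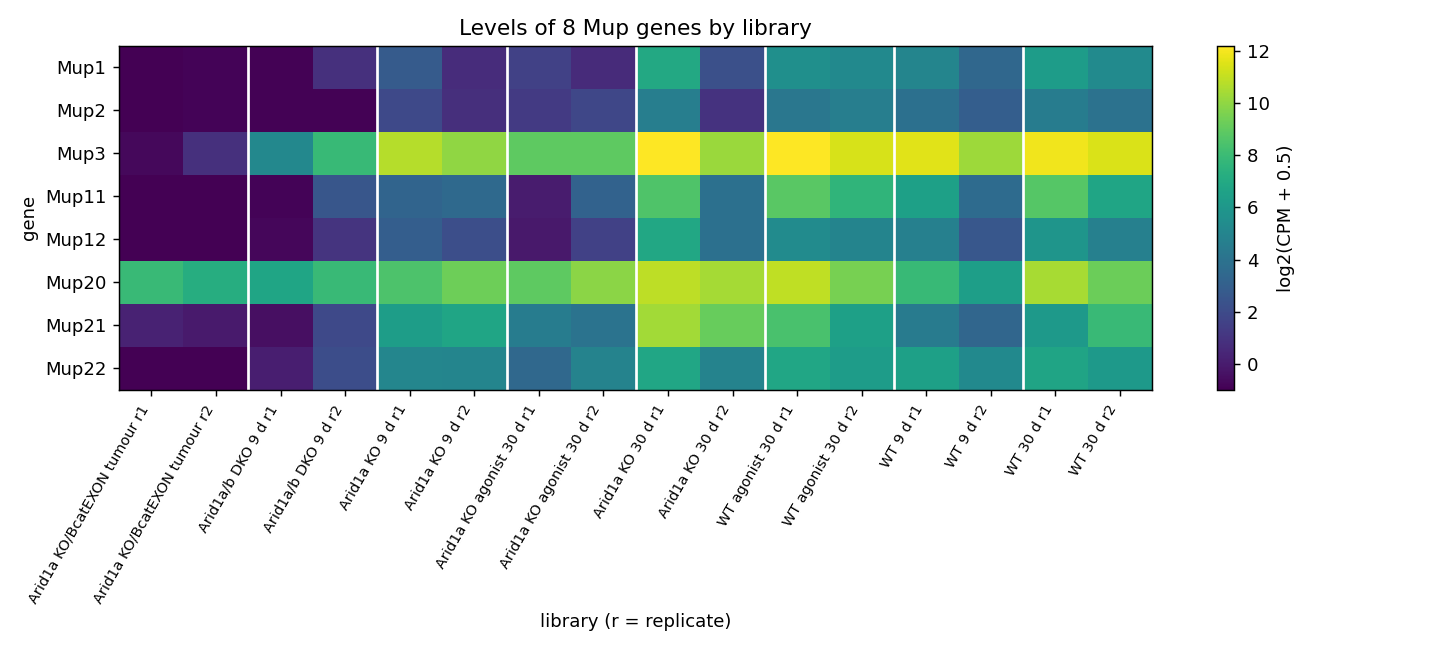
Level of each Mup gene (rows) in each library (columns, r is the replicate), as log2(CPM + 0.5) in colour, with white lines between groups. Mup3 and Mup20 are the brightest rows in livers, and Mup20 is the one row that stays bright in the tumours.

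The 30-day and 9-day livers were collected as separate groups, and their ratios are given as description with no test. In WT livers Mup21 was 10.1 times as high at 30 days as at 9 days (70.5 and 249 CPM, against 22.1 and 9.58 CPM), and Mup20 was 6.31 times as high (1434 and 602 CPM, against 239 and 83.4 CPM). Mup11 was 5.14 times, Mup1 2.87 times and Mup2 1.81 times as high, without overlap of the 2 times. For Mup12 (2.62 times), Mup3 (1.58 times) and Mup22 (1.32 times) the times overlapped. In Arid1a KO livers the ratios were 10.2 for Mup21, 3.32 for Mup20, 19.8 for Mup11 and 12.4 for Mup12, without overlap, while Mup1, Mup2, Mup3 and Mup22 overlapped. The share of all genes without overlap between the times was not counted, so these are not read as a trait of the Mup genes. In Arid1a KO against WT livers at 9 days, 22% of all genes were lower without overlap and 22.7% higher. Those shares are for genotype and are not the background of the ratios between times.

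With Arid1a alone deleted, the summed levels of Arid1a KO and WT livers overlapped at both times. At 9 days the sum was 2193 and 1801 CPM in Arid1a KO livers, against 3598 and 1389.7 CPM in WT livers, and the means stood at 80.1% of WT. Mup20 had 361 and 626 CPM in Arid1a KO livers, against 239 and 83.4 CPM in WT livers. Mup21, closest in sequence to Mup3, had 79.9 and 108 CPM in Arid1a KO livers, against 22.1 and 9.58 CPM in WT livers. Mup3 had 1693 and 1018 CPM in Arid1a KO livers, against 3083 and 1224 CPM in WT livers. Both Arid1a KO livers were above both WT livers for Mup20 and Mup21, as for 22.7% of all genes. Both were below both WT livers for 4 members, Mup1, Mup2, Mup11 and Mup22, as for 22% of all genes, and the groups overlapped for Mup3 and Mup12. None of the 8 members was called by edgeR's quasi-likelihood test at an adjusted p under 0.05, against 0.566% of all 17831 genes tested. DESeq2 and limma also called 0. An unadjusted p under 0.05 in edgeR was found for 1893 of all 17831 genes and for 3 members. These were Mup21 (log2 difference 2.58, SE 0.979, adjusted p 0.358), Mup20 (1.61, SE 0.683, adjusted p 0.427) and Mup2 (-2.24, SE 0.961, adjusted p 0.437). The other 5 had log2 differences of -2.50 to -0.67.

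At 30 days the sum was 8657 and 3198 CPM in Arid1a KO livers, against 6126 and 3951 CPM in WT livers. Mup21 was higher in both Arid1a KO livers, with 1349 and 571 CPM, against 70.5 and 249 CPM in WT livers. The share of all genes higher without overlap at 30 days was not counted, so this is not read as a trait of Mup21. Mup20 had 1906 and 1370.0 CPM in Arid1a KO livers, against 1434 and 602 CPM in WT livers, and Mup3 had 4641 and 1194 CPM, against 3939 and 2843 CPM. Both of these overlapped. By edgeR, DESeq2 and limma, 0 of 8 members were called, against 0.516% of genes tested by edgeR. An unadjusted p under 0.05 in edgeR was found for 1681 of all 17831 genes and for 1 member. That was Mup21, with a log2 difference of 2.58 (SE 0.967) and an adjusted p of 0.394. The KO difference at 30 days minus that at 9 days had 0 of 8 members called by the 3 tools, against 0% of genes in edgeR. At an unadjusted p under 0.05 in edgeR were 0 members and 323 of all 17831 genes.

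Mup2 was lowest in Arid1a/b DKO livers among the livers and was picked out of the comparison with WT in an earlier look at these libraries, so the values of that group are given with no p. The sum was 143.1 and 501 CPM in Arid1a/b DKO livers, against 2193 and 1801 CPM in Arid1a KO and 3598 and 1389.7 CPM in WT livers at 9 days. Its mean was 16.1% of that in Arid1a KO and 12.9% of that in WT livers. Without Mup20 the sum was 35.8 and 251 CPM in Arid1a/b DKO livers, against 3359 and 1306 CPM in WT livers. No Arid1a/b DKO library reached a library of the other 2 groups in either sum.

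Mup3 had 34.8 and 236 CPM in Arid1a/b DKO livers, against 1693 and 1018 CPM in Arid1a KO and 3083 and 1224 CPM in WT livers at 9 days. Mup2 had 1 and 2 counts in the 2 Arid1a/b DKO livers, and the pooled level in WT livers was 316 times that in Arid1a/b DKO livers. That ratio rests on 3 counts and on the difference by which Mup2 was chosen, so no interval is given for it. Mup20 did not follow: it had 107 and 249 CPM in Arid1a/b DKO livers, against 239 and 83.4 CPM in WT livers, which overlap. The log2 differences from WT were -3.99 for Mup3, -8.27 for Mup2, -4.90 for Mup1, -4.24 for Mup12, -4.81 for Mup22, -3.14 for Mup21, -4.23 for Mup11 and 0.15 for Mup20. Against Arid1a KO livers they ran from -6.03 for Mup2 and -5.72 for Mup21 to -1.46 for Mup20.

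Other cell markers moved with the Arid1a/b DKO group. The summed level of 5 endothelial markers was 401 to 408 CPM in Arid1a/b DKO livers, against 135 to 251 CPM in WT livers at 9 days. The 5 macrophage markers summed to 817 to 1376 CPM, against 365 to 709 CPM. The 5 lymphocyte markers summed to 52.5 to 71.3 CPM, against 25.8 to 43.6 CPM. Yet 4 of these 5 lymphocyte genes had a negative log2 difference from WT livers, with a median of -0.27 and 0 called by edgeR. The 5 cholangiocyte markers summed to 158 to 425 CPM, against 39.8 to 58.2 CPM, and the 5 stellate markers to 454 to 946 CPM, against 214 to 270 CPM. The 6 hepatocyte markers summed to 13951 to 14906 CPM in Arid1a/b DKO livers, against 15089 to 34912 CPM in WT livers. All 6 had a negative log2 difference from WT livers, with a median of -1.03, and 3 were called lower by edgeR. Of 27 abundant liver secreted proteins tested, 15 were called lower and 0 higher, with a median of -1.01. Of all genes, 13.8% were called lower there and 12.6% higher. Against Arid1a KO livers 17 of the 27 were lower, where 12.1% of all genes were. The part of the cell types in the Mup levels was not tested.

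In WT livers no difference with the agonist was detectable in the Mup genes. The sum was 7712 and 3862 CPM in WT agonist livers, against 6126 and 3951 CPM in WT livers at 30 days. The ranges overlap, and so do those of each of Mup3 (4721 and 2685 CPM, against 3939 and 2843 CPM), Mup20 (1974 and 714 CPM, against 1434 and 602 CPM) and Mup21 (344 and 91.6 CPM, against 70.5 and 249 CPM). By edgeR 0 of 8 were called, against 0.028% of genes tested, and DESeq2 and limma also called 0. At an unadjusted p under 0.05 in edgeR were 0 members and 653 of all 17831 genes. The log2 differences ran from -0.48 for Mup1 to 0.44 for Mup21. The SE of these differences ran from 0.67 to 1.56.

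In Arid1a KO livers given the agonist, all 8 members had lower means than in Arid1a KO livers without it. The sum was 1011 and 1523 CPM in Arid1a KO agonist livers, against 8657 and 3198 CPM in Arid1a KO livers at 30 days, and its mean was 21.4% of that in Arid1a KO livers. Mup21 had 23.0 and 16.02 CPM in Arid1a KO agonist livers, against 1349 and 571 CPM in Arid1a KO livers. Mup3 had 493 and 495 CPM in Arid1a KO agonist livers, against 4641 and 1194 CPM in Arid1a KO livers. Both genes were lower in each agonist liver than in each liver without it. Mup20 had 479.6 and 968 CPM in Arid1a KO agonist livers, against 1906 and 1370.0 CPM in Arid1a KO livers, again without overlap.

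Mup21 fell here, with a log2 difference of -5.62 (SE 1.12) and an adjusted p of 0.0478 in edgeR. It was the only member called, against 0.32% of all genes tested that were called lower. At an unadjusted p under 0.05 in edgeR were 7 of 8 members and 2297 of all 17831 genes. DESeq2 called 3 members, limma 1 and edgeR with no low-count filter 8, with no share of all genes given beside these. The call rests on thin margins, since the adjusted p was 0.0502 with RLE scaling, 0.0573 with the replicate number as a block and 0.0695 on the 4 compared libraries alone. Without replicate 1 of Arid1a KO it was 0.159, and without replicate 1 or 2 of Arid1a KO agonist it was 0.340 and 0.180. The log2 difference was -5.90 to -4.89 in these settings. Without replicate 2 of Arid1a KO the call held (-6.04, adjusted p 0.0352) and 4 members were called. The other 7 members had log2 differences of -5.43 (Mup12, SE 1.33, adjusted p 0.103) to -1.18 (Mup20, SE 0.675, adjusted p 0.522). For 7 of 8 members both agonist livers were below both livers without it, where 19.3% of all genes were, and Mup2 overlapped. The median over members was -3.94, against -0.02 for all genes.

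**Figure D4:**
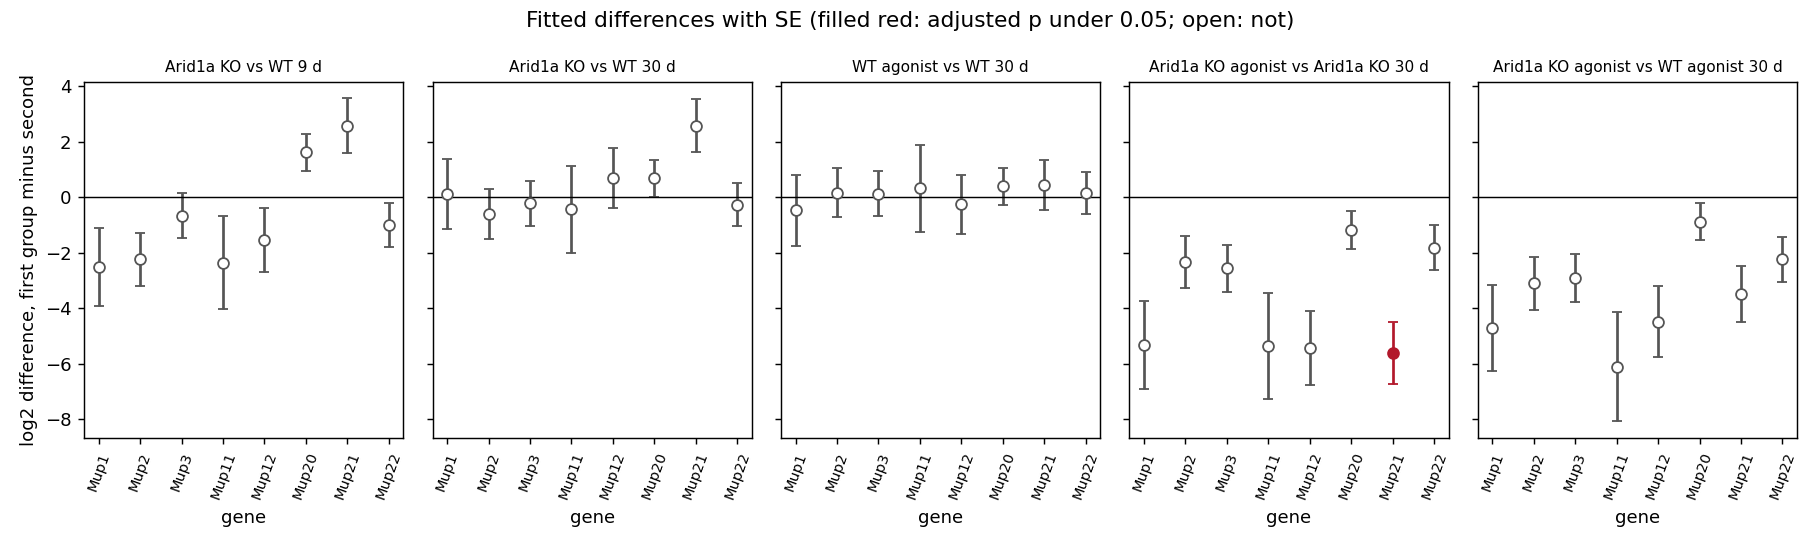
Fitted log2 difference of each Mup gene, first named group minus second, with bars of 1 SE, in 5 comparisons of livers; a filled red point has an adjusted p under 0.05. Mup21 at -5.62 in Arid1a KO agonist against Arid1a KO livers is the one filled point, and all 8 points lie below 0 in the 2 panels of Arid1a KO agonist livers.

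Under the agonist, Arid1a KO livers also had lower Mup levels than WT livers. The sum was 1011 and 1523 CPM in Arid1a KO agonist livers, against 7712 and 3862 CPM in WT agonist livers, and its mean was 21.9% of that in WT agonist livers. Mup3 had 493 and 495 CPM in Arid1a KO agonist livers, against 4721 and 2685 CPM in WT agonist livers (log2 difference -2.90, SE 0.864, adjusted p 0.0806). Mup21 had 23.0 and 16.02 CPM in Arid1a KO agonist livers, against 344 and 91.6 CPM in WT agonist livers (-3.48, SE 1.011, adjusted p 0.075). Mup12 had 0.422 and 2.45 CPM in Arid1a KO agonist livers, against 40.4 and 30.2 CPM in WT agonist livers (-4.48, SE 1.29, adjusted p 0.0726). No member passed the threshold in edgeR, against 4.95% of genes. At an unadjusted p under 0.05 in edgeR were 7 members and 3827 of all 17831 genes. DESeq2 called 6 members and limma 1, with no share of all genes given beside these, so they do not set the members apart. Mup20 was the exception, with 479.6 and 968 CPM in Arid1a KO agonist livers, against 1974 and 714 CPM in WT agonist livers (-0.89, SE 0.671, adjusted p 0.497). The comparison shares its Arid1a KO agonist libraries with the preceding one.

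The difference between the agonist's effect in Arid1a KO and in WT livers was tested as an interaction. All 8 members had a negative value, from -6.06 for Mup21 (SE 1.40, adjusted p 0.316) to -1.58 for Mup20 (SE 0.947). By edgeR 0 of 8 were called, against 0.00561% of genes, with 5 at an unadjusted p under 0.05, as were 995 of all 17831 genes. DESeq2 called 1, Mup21, and limma 0, with no share of all genes given beside these. Counted as one merged gene, the 8 members had a log2 difference of -2.22 (SE 0.688) from Arid1a KO livers, 0.20 (SE 0.658) for the agonist in WT livers and an interaction of -2.42 (SE 0.944).

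Cholangiocyte markers summed to 230 to 342 CPM in Arid1a KO agonist livers, against 93.9 to 272 CPM in Arid1a KO and 39.7 to 49.4 CPM in WT agonist livers. Macrophage markers summed to 348 to 620.3 CPM in Arid1a KO agonist livers, against 269 to 344 CPM in Arid1a KO and 224 to 284 CPM in WT agonist livers. Stellate markers summed to 335 to 593 CPM in Arid1a KO agonist livers, against 234 to 439 CPM in Arid1a KO and 191 to 227 CPM in WT agonist livers. Hepatocyte markers summed to 12391 to 13181 CPM in Arid1a KO agonist livers, against 17004 to 22109 CPM in Arid1a KO and 16702 to 20828 CPM in WT agonist livers. Their part in the Mup levels was not tested.

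Tumours had almost none of 7 members, while Mup20 was lower than in Arid1a KO livers and still clearly present. The 7 summed to 7 and 36 counts, or 0.794 and 1.82 CPM, in tumours, against 1832, 1174, 6751 and 1828 CPM in Arid1a KO livers and 3359, 1306, 4692 and 3350 CPM in WT livers, at 9 and then 30 days. Mup3 had 1 and 25 counts in the tumours, or 0.113 and 1.26 CPM. Mup21 had 0.681 and 0.455 CPM. Mup20 had 244 and 148 CPM in tumours, against 361, 626, 1906 and 1370.0 CPM in Arid1a KO livers and 239, 83.4, 1434 and 602 CPM in WT livers. All 4 Arid1a KO livers were above both tumours in Mup20, while the WT livers overlapped them.

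Because the tumours carry no time label, they were set against the mean of the 9-day and 30-day livers of a genotype. All 8 members fell against Arid1a KO livers in edgeR's test, where 15.2% of 18193 genes did, and 7 fell against WT livers, where 16.1% did. Against Arid1a KO livers the log2 difference was -11.24 for Mup3 (SE 1.31, adjusted p 9.69e-05), -9.11 for Mup21 (SE 1.32, adjusted p 0.00038) and -2.20 for Mup20 (SE 0.633, adjusted p 0.0195). Against WT livers it was -11.69 for Mup3 (SE 1.33, adjusted p 7.11e-05) and -6.53 for Mup21 (SE 1.22, adjusted p 0.00161). Mup20 was not called there (-1.05, SE 0.594, adjusted p 0.187). Against the 9-day WT livers alone Mup20 had a difference of 0.28 and against the 30-day ones -2.38 (adjusted p 0.0214).

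Mup11, Mup12 and Mup22 had 0 counts in both tumours. With a floor of 3 counts over the pair of tumours, Mup11 was at least 974-fold lower than in Arid1a KO livers and at least 1500.2-fold lower than in WT livers. Mup12 was at least 352-fold and 278-fold lower, and Mup22 at least 492-fold and 715-fold lower. Mup1 and Mup2 had 1 count each over both tumours. The pooled level of Mup1 in Arid1a KO livers was 513 times that in tumours (95% counting interval 92.0 to 20294), and that of Mup2 was 126 times (22.4 to 4983). With zero-count members at their bound, the median log2 difference over members was -8.76 against Arid1a KO livers and -8.98 against WT livers. Intervals and floors cover counting error only.

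Of 6 hepatocyte markers, 0 were called by edgeR in tumours against Arid1a KO livers, with a median of -0.02. At an unadjusted p under 0.05 were 0 of 6, and 8058 of all 18193 genes. Macrophage markers fell in tumours in 4 of 5 against Arid1a KO livers, with 1 higher, where 15.2% of all genes were lower and 18% higher. Their sum was 179 to 264 CPM in tumours, against 269 to 999 CPM in Arid1a KO livers. Lymphocyte markers had 3 of 5 lower, with a median of -2.00. Endothelial markers had 1 lower and 1 higher, stellate markers 1 lower and cholangiocyte markers 1 higher, of 5 each. Without tumour 1 the number of members called against Arid1a KO livers was 5, and without tumour 2 it was also 5. Tumour 2, which had both Xist and Y-linked transcripts, had 1.82 CPM of the 7 members, and tumour 1 had 0.794 CPM. Tumour and sex cannot be told apart here.

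The table holds 41 other rows with a Mup symbol, 14 numbered genes and 27 pseudogenes. Their sum was 0.34 and 4.30 CPM in tumours, 3.16 and 53.3 CPM in Arid1a/b DKO livers, 99.6 and 462 CPM in Arid1a KO agonist livers and 3767 and 1705 CPM in WT agonist livers. Mup7 and Mup17 were the largest of them, chosen after their values were seen, with 1302 and 614 CPM of Mup7 and 1694 and 759 CPM of Mup17 in WT agonist livers. Of 29 tested rows, 7 fell in tumours against Arid1a KO livers, where 15.2% of all genes did, and 11 against WT livers, where 16.1% did. Of 30 tested in livers, 3 were called lower in Arid1a/b DKO than in WT livers, where 13.8% of all genes were, and 1 in Arid1a KO agonist than in WT agonist livers, where 1.91% were. All 14 numbered genes had a negative difference in each of these 4 comparisons. Most of them share their sequence with members, so they are not separate evidence.

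Male-biased liver genes outside the Mup family were lower in Arid1a KO agonist livers, tumours and Arid1a/b DKO livers. In a list of 20 such genes, 6 fell in Arid1a KO agonist against Arid1a KO livers, where 0.32% of all genes did. They include Susd4 (log2 difference -7.44, adjusted p 0.00172), Cyp2u1, a P450 (-3.25, adjusted p 0.00655), C8b, a complement subunit (-1.58, adjusted p 0.0151), and Slco1a1, an organic anion transporter (-5.56, adjusted p 0.0196). The list's median was -2.15. Against WT agonist livers 11 of 20 fell, where 1.91% of all genes did, with a median of -2.35. In WT livers given the agonist the median was -0.01, with 0 called by edgeR. At an unadjusted p under 0.05 were 2 of 20, and 653 of all 17831 genes.

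In tumours 17 of 20 male-biased genes fell against Arid1a KO livers, where 15.2% of all genes did, with a median of -3.72. Against WT livers 16 fell, where 16.1% of all genes did, with a median of -4.28. Cyp7b1, an oxysterol hydroxylase, had -3.93 and -4.83, and Ugt2b1, a glucuronosyltransferase, -5.28 and -5.23 against Arid1a KO and WT livers. In Arid1a/b DKO livers 16 of 20 were lower than in WT livers, where 13.8% of all genes were, with a median of -4.09. Lower than in Arid1a KO livers were 13, where 12.1% of all genes were, with a median of -2.82. In Arid1a KO against WT livers at 9 days 1 of 20 fell by edgeR, Ugt2b38 (-6.16, adjusted p 0.0185), where 0.297% of all genes did. At 30 days 0 were called by edgeR. An unadjusted p under 0.05 was found there for 3 of 20, and for 1681 of all 17831 genes.

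Female-biased genes had positive medians in tumours and under the agonist and negative ones in Arid1a/b DKO livers and in Arid1a KO livers at 9 days. Of 24 genes, 9 rose in tumours against Arid1a KO livers, where 18% of all genes did, with a median of 2.09. Among them were Sult2a1, a sulfotransferase (9.22, adjusted p 0.00121), and Cyp3a16, a P450 (5.75, adjusted p 0.000975). In Arid1a KO agonist against Arid1a KO livers 2 rose, Slc22a27 (5.31, adjusted p 0.00739) and Prom1 (5.52, adjusted p 0.0103), where 0.55% of all genes did, with a median of 3.04. In WT agonist livers the median was 2.44, with 0 called by edgeR. At an unadjusted p under 0.05 were 10 of 24, and 653 of all 17831 genes. In Arid1a/b DKO against WT livers 12 were lower, where 13.8% of all genes were, and 1 higher, where 12.6% were, with a median of -3.45. In Arid1a KO against WT livers at 9 days 2 were lower by edgeR, where 0.297% of all genes were, with a median of -0.90. At an unadjusted p under 0.05 were 12 of 24, and 1893 of all 17831 genes.

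The growth hormone receptor gene Ghr had 152 and 163 CPM in tumours, 88.9 and 111 CPM in Arid1a/b DKO livers, 314 and 333 CPM in Arid1a KO agonist livers and 674 and 885 CPM in WT agonist livers. Arid1a KO livers had 478 and 444 CPM at 9 days and 745 and 481 CPM at 30 days, against 763 and 571 CPM and 766 and 810 CPM in WT livers. Ghr fell in Arid1a KO agonist against WT agonist livers by 1.27 on the log2 scale (SE 0.252, adjusted p 0.0198), with Igfals (-1.30) and Igf1 (-1.08), both made under growth hormone. These 3 of the 13 genes of the growth hormone and STAT5 list were the ones called, where 1.91% of all genes were called lower. Against Arid1a KO livers Igfals alone fell by edgeR (-1.46, adjusted p 0.0266), where 0.32% of all genes did, and Ghr had -0.92 (adjusted p 0.142). In tumours Ghr (-1.75), Igfals (-1.83) and Igf1 (-0.94) fell against Arid1a KO livers, and Ptpn2, a phosphatase, rose (0.67). Of the 13 listed, 3 were thus lower and 1 higher, where 15.2% of all genes were lower and 18% higher. In Arid1a/b DKO livers 4 of 13 were lower than in WT, where 13.8% of all genes were.

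Stat5b, which carries the growth hormone signal to DNA, ranged from 41.6 CPM in Arid1a/b DKO liver to 154 CPM in Arid1a KO liver at 30 days. Zhx2 had 25.1 and 41.1 CPM in Arid1a/b DKO livers, 18.1 and 20.9 CPM in Arid1a KO agonist livers and 25.7 and 29.8 CPM in WT agonist livers. Of 16 regulators of sex-dependent expression, 5 fell and 1 rose in tumours against Arid1a KO livers, where 15.2% and 18% of all genes did. Thrb (-1.14) and Foxa1 (-2.70) were among those that fell. In Arid1a KO agonist livers 0 of 16 were called by edgeR against Arid1a KO or against WT agonist livers. At an unadjusted p under 0.05 were 0 and 3 of 16, against 2297 and 3827 of all 17831 genes. Of 13 other lipocalins tested by edgeR, Orm2, an acute-phase protein, rose in Arid1a KO agonist against Arid1a KO livers (3.60, adjusted p 0.0252) and 0 fell. Of all genes, 0.55% rose there and 0.32% fell. In tumours 3 of them rose and 2 fell against Arid1a KO livers, shares near the 18% and 15.2% of all genes. In Arid1a/b DKO livers 7 of the 13 lipocalins were lower than in WT livers and 1 was higher, with a median of -1.63. Of the 16 regulators, 7 were lower and 0 higher there, with a median of -1.08. Of all genes, 13.8% were lower there and 12.6% higher. Against Arid1a KO livers, 5 of 13 lipocalins and 6 of 16 regulators were lower, where 12.1% of all genes were.

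The 5 non-Mup genes whose 8 group means ran closest to the summed Mup level were Ankrd33b, Scnn1a, Sntg2, Keg1 and Mcm10, with root mean square differences of 0.35 to 0.49 in centred log2(CPM + 0.5) among 12593 genes. The summed Mup level itself varied with a root mean square of 1.77. Ankrd33b averaged 1.74 CPM in tumours, 3.57 in Arid1a/b DKO, 17.4 in Arid1a KO agonist and 78.6 CPM in WT agonist livers. Scnn1a, a subunit of the epithelial sodium channel, averaged 4.42, 4.77, 13.0 and 71.9 CPM in the same groups. Keg1 averaged 31.6, 37.0, 175 and 417 CPM in them. The likeness is over 8 means and carries no test.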

How the data were processed

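RNA was made into polyA libraries after Trizol and column extraction, per the labels' protocols. Reads were processed with fastp, STAR 2.7.3 and featureCounts on GRCm38.p6 (mm10), per the submitters' processing notes. The sources used here do not give the annotation release, the strand setting or the handling of reads that map to several places. The authors deposited raw counts per gene and a normalized signal table, which equals the counts times 1 factor per library to within 0.0203. Of 55291 genes, 18410 had 0 counts in all libraries, and 96.4% of symbols matched GENCODE M21. Symbols, coding sequences and positions were taken from GENCODE M21, and promoters from RefSeq.

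The 11 comparisons were fitted to the counts with edgeR 4.0.16 in R 4.3.3 (filterByExpr, TMM, quasi-likelihood F test). Livers were fitted together (14 libraries, 17831 genes), and tumour comparisons on all 16 (18193 genes). P-values were adjusted by Benjamini-Hochberg over all genes tested, with a threshold of 0.05 for a call. The SE of a log2 difference was its size divided by the square root of F. Alternatives were RLE scaling, no filter, DESeq2 1.42.0, limma 3.58.1 on log2 of the authors' normalized signal, a replicate block, other sets of libraries and leaving out each library. Replicates are biological per the design text, which does not say how they were kept apart. Sums of members carry no p. Coding sequences were aligned with mafft 7.526.

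The members, gene lists and tests were chosen with earlier results of these data known. Named genes were the 8 members, other Mup rows by counts and ranges, up to 4 genes with the smallest p of each list, 7 context genes (Ghr, Stat5b, Zhx2, Alb, Xist, Ddx3y and Eif2s3y) and the 5 genes most like the summed members among those with a mean of at least 2 CPM. Arid1a, Arid1b and the ratios between times were added after the data were seen, as was the sum without Mup20. The fit was tested on simulated data with known changes. Its first version missed a preset recovery for the largest changes. Then a tie between fold size and direction was removed, and at the same time changed genes were limited to a mean of at least 2 CPM. Results without that limit are kept beside it, and recovery was lower there.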

Additional observations from a re-analysis of the deposited data

Results flagged for a closer look

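Mup21 was picked out because its genotype difference had opposite directions without and with the agonist, so this pattern does not test the choice. The share of all genes with such a pattern was not counted. In Arid1a KO against WT livers at 9 days, 22% of all genes were lower without overlap and 22.7% higher. Both Arid1a KO livers without agonist (1349 and 571 CPM) were above both WT livers at 30 days (70.5 and 249 CPM), whereas both Arid1a KO agonist livers (23.0 and 16.02 CPM) were below both WT agonist livers (344 and 91.6 CPM). The interaction was -6.06 on the log2 scale (SE 1.40), with an edgeR adjusted p of 0.316 and a DESeq2 adjusted p of 0.0242. It did not pass the threshold in edgeR with the low-count filter and the 30-day vehicle livers, where leaving out one library gave adjusted p-values of 0.144 to 0.953. It passed in edgeR with no low-count filter (adjusted p 1.06e-47), where the log2 value was -5.99 and the SE was 0.397, against 1.40 with the filter. It also passed with WT livers at 9 days as vehicle (adjusted p 0.0282), but that setting carries the difference between the times into the interaction, and the WT agonist difference becomes 3.79.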

How the results depend on the processing

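Members called were most sensitive to the low-count filter and to single libraries, and the cause was not tested. With no filter the counts were 7 for Arid1a KO vs WT at 9 days and 1 at 30 days, 8 for Arid1a KO agonist vs Arid1a KO, 8 for Arid1a KO agonist vs WT agonist, 8 for the agonist interaction and 3 for the time interaction. For Mup21 in Arid1a KO vs WT at 9 days the SE was 0.278 with no filter, against 0.979 with it, at the same log2 difference of 2.58. The shares of all genes called with no filter, DESeq2 or limma are not given here. Counts of members from these settings therefore do not set the members apart from other genes. For Arid1a KO agonist vs Arid1a KO the count was 0 with RLE scaling, 0 with the replicate block, 0 on only the libraries compared and 3 with DESeq2. For Arid1a KO agonist vs WT agonist it was 6 with DESeq2, 1 with limma and 6 on only the libraries compared. The agonist interaction had 1 with DESeq2 and 1 with WT at 9 days as vehicle, and tumour vs Arid1a KO had 5 with 9-day livers only.

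Leaving out one library gave 0 to 1 for Arid1a KO vs WT at 30 days, where Mup2 was called without Arid1a KO replicate 1 (log2 difference -3.71, adjusted p 0.0377). Leaving out one library also moved the calls in the Arid1a/b DKO comparisons, whose counts are not given since Mup2 was chosen on that group. It gave 0 to 4 for Arid1a KO agonist vs Arid1a KO (4 without Arid1a KO replicate 2), and 5 to 8 for tumour vs Arid1a KO.

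The log2 ratio of summed members was -0.17 for Arid1a KO vs WT at 9 days (-0.86 to 0.52 without one library) and 0.10 at 30 days (-0.62 to 0.82 without one library, -0.0490 over all Mup rows, -0.17 without Mup20). It was 0.15 for the agonist in WT (-0.35 to 0.65), -2.23 for the agonist interaction (-2.95 to -1.51) and 0.27 for the time interaction (-0.45 to 0.99). Without Mup20 it was -4.45 for Arid1a/b DKO vs WT, -3.94 for Arid1a/b DKO vs Arid1a KO, -2.97 for Arid1a KO agonist vs WT agonist, -10.36 for tumour vs Arid1a KO and -10.70 for tumour vs WT.

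Single genes changed sign as follows. Mup1 in Arid1a KO vs WT at 30 days had -1.29 with limma and -0.39 with the replicate block. With WT at 9 days as vehicle, the agonist in WT gave 1.05 for Mup1 and 1.15 for Mup12. The time interaction of Mup21 had -0.00100 with RLE scaling, -0.0467 with no filter, -0.0604 with the replicate block and -0.0129 on only the libraries compared. Mup20 in tumour vs WT had 0.28 with 9-day livers only. Without one library, Mup3 in Arid1a KO vs WT at 9 days had -1.18 to 0.14. At 30 days Mup1 had -3.79 to 1.05, Mup2 -3.71 to 0.30, Mup3 -1.47 to 0.40, Mup11 -4.15 to 0.84, Mup12 -1.51 to 1.497 and Mup22 -1.49 to 0.35. Mup20 in Arid1a/b DKO vs WT had -0.61 to 1.09. For the agonist in WT, Mup1 had -0.88 to 0.0946, Mup2 -0.10 to 0.49, Mup3 -0.33 to 0.47, Mup11 -0.38 to 1.60, Mup12 -0.71 to 0.39, Mup20 -0.50 to 1.15, Mup21 -0.80 to 1.63 and Mup22 -0.12 to 0.48. Mup2 in Arid1a KO agonist vs Arid1a KO had -3.23 to 0.78 and in the agonist interaction -3.39 to 0.61, and Mup20 in Arid1a KO agonist vs WT agonist -1.49 to 0.0180. For the time interaction, Mup1 had -1.29 to 4.31, Mup2 -1.47 to 2.54, Mup3 -0.80 to 1.07, Mup11 -1.79 to 3.20, Mup21 -0.75 to 1.19 and Mup22 -0.49 to 1.35.

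Same-numbered replicates deviated together by more than 0.1 in 13 of 28 pairs of groups and against each other by more than 0.1 in 1 (correlations -0.13 to 0.44). The labels do not say that a number marks a shared batch, and not every pair passed 0.1, so the samples are treated as sharing only a number. Whether the replicates numbered 1, the shallower in 8 of 8 groups, were handled as one set is not known. With the replicate block, 8 and 7 members were called for tumour vs Arid1a KO and WT, and 0 in the other comparisons that do not use Arid1a/b DKO livers. Depth limits the tumours, where 3 counts are 0.340 and 0.152 CPM.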

Other observations

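Male-biased genes outside the Mup family, chosen after their values were seen, differed between the 2 times as Mup21 did. Hsd3b5, a steroid dehydrogenase, averaged 283 CPM in WT livers at 30 days, against 4.75 CPM at 9 days. Elovl3, a fatty acid elongase, averaged 238 CPM at 30 days, against 6.03 CPM at 9 days in WT livers, and Cyp4a12a, a P450, 464 CPM, against 18.7 CPM. In Arid1a KO livers the 30-day means were 38.8, 274 and 21.3 times the 9-day means for Hsd3b5, Elovl3 and Cyp4a12a. Within WT agonist livers Hsd3b5 had 404 and 58.5 CPM, so replicates of this group also differed several-fold. Mup17, whose reads are shared with near-identical copies, had 2.88 and 306 CPM in the 2 Arid1a KO agonist livers and 923 and 3.21 CPM in the 2 Arid1a KO livers at 30 days.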
